A study of Mus musculus with 5 samples.

Results

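The SLAM family of surface receptors was examined in the transcriptome of mouse brain microglia, the resident macrophages of the brain. The members were the rows of a gene count table whose symbol is Cd48, Cd84, Ly9, Slamf1, Slamf7, Slamf8 or Slamf9, which gave 7 of 41388 genes. The 7 were proposed with their counts in both genotypes already known, so their levels and fold changes are given as a description, without a test. The A20 deletion group has 3 libraries from microglia of the genotype written eYFP-A20Dmg, labelled A20-deletion. The control group has 2 libraries from microglia of the genotype eYFP-A20fl/wt Cx3cr1-CreERT2/+, labelled as partially deficient, so the controls carry a deletable allele and the Cre recombinase themselves. All mice were on a C57Bl/6 background, were 4 weeks old and had received 2 mg tamoxifen on postnatal days 14 and 16, and the cells were sorted on eYFP, a fluorescent protein reporter. A20 is the product of Tnfaip3 and acts on ubiquitin chains to limit NF-kB activity. In the controls Cre is driven by Cx3cr1, a gene that microglia share with other macrophages and monocytes. The labels do not name the Cre line of the deletion genotype, and they do not say that libraries came from separate animals, so the spread between libraries may be partly technical.

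SLAM receptors are immunoglobulin-like proteins of leukocytes. Most bind a copy of themselves on a neighbouring cell, whereas CD48 is the ligand of CD244 and, in mice, of CD2. Their cytoplasmic tails carry tyrosine switch motifs that recruit small adaptors of the SAP family and, through them, Src-family kinases, or else inhibitory phosphatases. CD48 has no tail, being held in the membrane by a lipid anchor, and SLAMF8 and SLAMF9 have short tails without the motif. The family is best known from T, B and NK cells, and several members are also made by macrophages.

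The deletion libraries held between 9726334 and 12883827 counts and the control libraries 13946211 and 15275199. A level of 3 counts, taken here as the detection floor, corresponded to between 0.192 and 0.306 CPM (the count relative to the scaled library total). Microglial markers summed to between 46800 and 52500 CPM in the deletion libraries and to 63000 and 67800 CPM in the controls, and 1 of 12 fell while 0 rose. In 10 of the 12 every deletion library was below both controls (18.5% of all tested genes). An unadjusted p under 0.05 was found for 7 (21% of all tested genes). DESeq2 called 5 of the 12 and 1110 of all 12240 tested genes. Deletion replicates 2 and 3 stood apart, with 4.63% and 3.56% of counts from mitochondrially encoded genes, against 0.847% in deletion replicate 1 and 1.19% and 0.852% in the controls. They also held less signal from long genes, 37.8% and 38.5% of tested counts against 44.9% in deletion replicate 1 and 48.0% and 46.9% in the controls. Deletion replicate 1 and control replicate 1 held Xist (616 and 780 counts) and the other 3 libraries held none. Tnfaip3 itself stood at 294.6, 276.9 and 347.5 CPM in the deletion libraries and at 454.1 and 94.75 CPM in the controls, with an edgeR adjusted p of 0.881. A count over all exons does not check the deletion.

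Of the 7 members 7 passed the filter on low counts. Across all 12240 genes tested with edgeR's quasi-likelihood test, 3 members (Ly9, Slamf8 and Slamf9) were among the genes called higher in A20 deletion at an adjusted p under 0.05, and 0 were among those called lower. The same fit called 2.59% of all tested genes, 2.08% higher and 0.507% lower. In 6 members every deletion library lay above both controls, which held for 21.8% of all tested genes (40.2% did not overlap in either direction), and in Slamf1 the groups overlapped. For Slamf7 this rests on depth scaling alone, since deletion replicate 3 and control replicate 2 had 2 counts each. The median log2 fold change of the members was 1.60, against a median of 0.05 over all tested genes. These counts describe genes that were picked with the same contrast in view, and nothing is read from them.

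**Figure D1:**
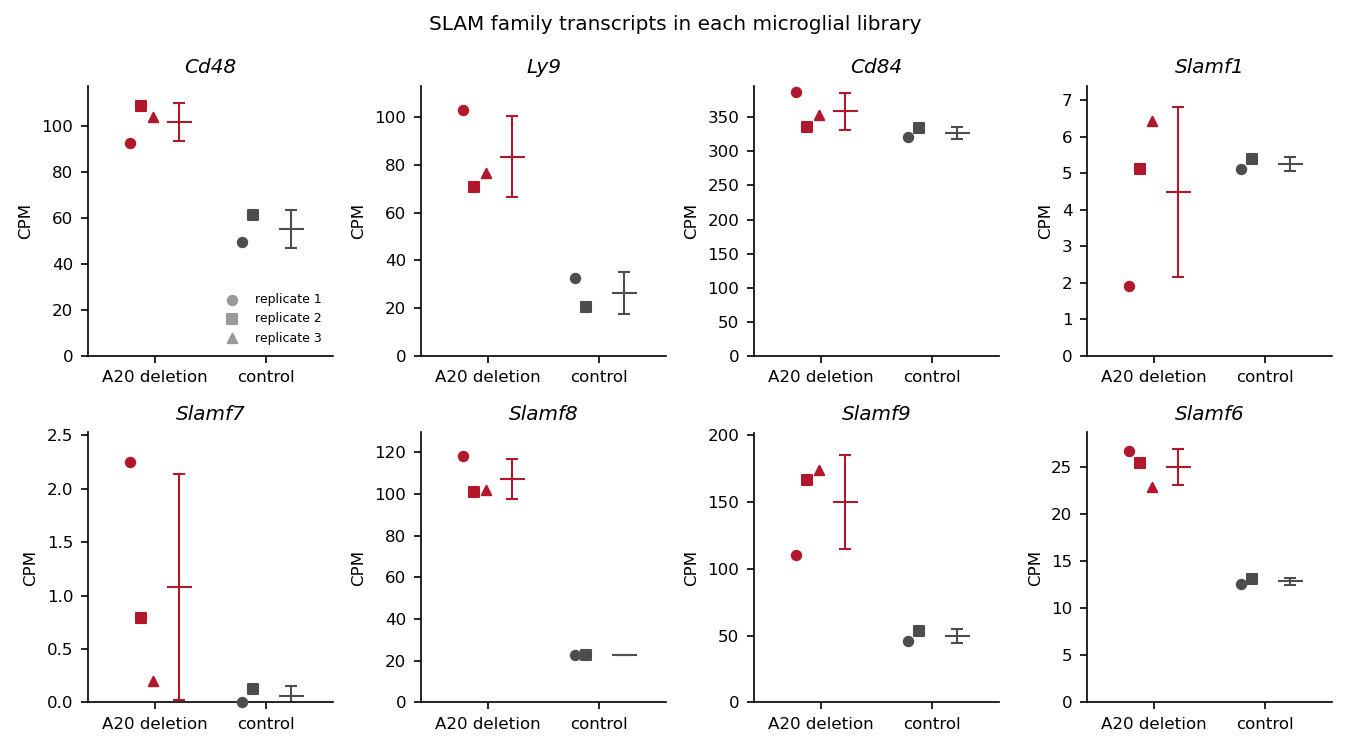
CPM in each library for the 7 members and for Slamf6, a relative outside the list, with A20 deletion in red and control in grey, a symbol for each replicate number, and the mean with its SD beside the points. The 3 deletion libraries of Slamf8 lie between 100.9 and 118.0 CPM and both controls near 23 CPM, while the points of Cd84 nearly touch and those of Slamf1 overlap.

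Cd48, the ligand of the family, lies on the plus strand of chromosome 1 (ENSMUSG00000015355, GRCm38 171682009 to 171705258). It stood at 92.7, 108.6 and 103.9 CPM in the deletion libraries and at 49.37 and 61.2 CPM in the controls. All 3 deletion libraries were above both controls, the lowest of them 1.515 times the higher control. The fold change was 1.84 (log2 0.88, SE 0.18, n = 3 and 2). This size was smaller with gene length adjusted for: Cd48 has 1189 exonic bases, the fewest of the 7. After each library's trend with gene length was removed the log2 fold change was 0.25. With deletion replicates 2 and 3 omitted, the libraries with the least signal from long genes, it was 0.76. The part of gene length in the size was not tested. Cd48 was outside the called genes in the fit over all 5 libraries. It entered them with DESeq2, with no filter on low counts, with a filter of at least 5 CPM in 2 libraries and with a term for sex. It also entered them without deletion replicate 1, where the log2 fold change was 0.92 and where the groups cannot be told apart from the mitochondrial and gene-length structure of deletion replicates 2 and 3.

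The receptors with switch-motif tails behaved unequally. Ly9, also called CD229 or SLAMF3, binds itself on neighbouring lymphocytes and macrophages. Its gene is on the minus strand of chromosome 1 (ENSMUSG00000004707, 171588624 to 171607410). Ly9 stood at 102.9, 70.83 and 76.7 CPM in the deletion libraries and at 32.79 and 20.33 CPM in the controls. Deletion replicate 1 was the highest and control replicate 2 the lowest, and the groups were well apart. The fold change was 3.14 (log2 1.65, SE 0.28, n = 3 and 2). The annotation places a long transcript of Cd244a over Ly9 on the other strand, with 0 exonic bases in common, and Cd244a had 43 counts in the deletion libraries together and 13 in the controls, far fewer than Ly9.

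Cd84, or SLAMF5, is a self-ligand found on macrophages, platelets and B cells (ENSMUSG00000038147, plus strand, 171839697 to 171890718). It had the highest CPM of the 7, at 387.6, 335.2 and 353.3 in the deletion libraries and 320.8 and 333.8 in the controls. The lowest deletion library was 1.004 times the higher control, so the groups only just failed to overlap. The fold change was 1.10 (log2 0.13, SE 0.15, n = 3 and 2), which is smaller than its error.

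Slamf1, or CD150, is a self-ligand of lymphocytes and activated myeloid cells, and in mouse macrophages it acts as a sensor of bacteria (ENSMUSG00000015316, plus strand, 171767127 to 171801184). It was low in every library, with 22, 65 and 63 counts in the deletion libraries and 72 and 84 in the controls. These counts equal 1.906, 5.11 and 6.417 CPM in the deletion libraries and 5.122 and 5.388 CPM in the controls. Deletion replicate 1 was the lowest of the 5 libraries and deletion replicate 3 the highest. The log2 fold change was -0.23 (SE 0.50, n = 3 and 2), and without deletion replicate 1 it turned to 0.10. With deletion replicates 2 and 3 omitted it was -1.45.

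Slamf7, or CRACC, is a self-ligand of NK cells, plasma cells and activated macrophages (ENSMUSG00000038179, minus strand, 171632403 to 171653035). It had 26, 10 and 2 counts in the deletion libraries and 0 and 2 in the controls, so deletion replicate 3 and both controls were below the floor of 3 counts. The ratio of pooled counts was 16.5 (exact 95% interval 4.27 to 141). That interval covers counting error alone, as amplified reads are not separate molecules. Most of the signal came from deletion replicate 1. Of its 4577 exonic bases, 423 are shared with other annotated genes.

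Slamf8 and Slamf9 have short tails and are made mainly by myeloid cells. Slamf8, known in mouse macrophages for dampening the NADPH oxidase, is on the minus strand (ENSMUSG00000053318, 172581758 to 172590568). It stood at 118.0, 100.9 and 101.9 CPM in the deletion libraries and at 22.62 and 22.77 CPM in the controls. Both groups were tight and far apart, with the lowest deletion library 4.43 times the higher control. The fold change was 4.71 (log2 2.24, SE 0.17, n = 3 and 2).

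Slamf9 is on the plus strand (ENSMUSG00000026548, 172475358 to 172478575). It stood at 110.1, 166.4 and 174.3 CPM in the deletion libraries and at 46.17 and 53.24 CPM in the controls. Deletion replicate 1 was the lowest of its group, the reverse of Ly9, Slamf7 and Slamf8, and still above both controls. The fold change was 3.02 (log2 1.60, SE 0.24, n = 3 and 2). With 1313 exonic bases Slamf9 is the next shortest member after Cd48, and with the length trend removed its log2 fold change was 0.97.

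The promoter windows of the members were compared because Slamf8 had the best separated groups and Cd84 nearly equal ones, while Slamf9 shares the short tail of Slamf8. RefSeq windows of 300 bases (GRCm38.p6, 250 before to 50 after the gene start) were matched by symbol for 6 of the 7 members and searched on both strands for 3 motifs. These were the core of the interferon-stimulated response element (GAAANNGAAA), the gamma-activated site (TTCNNNGAA) and the NF-kB consensus, and matches are in capitals below. The Slamf8 window is chr1:172590519-172590818 on the minus strand, the Slamf9 window chr1:172475110-172475409 and the Cd84 window chr1:171839447-171839746, both on the plus strand. Each is written 5′ to 3′ along its gene.
Slamf8: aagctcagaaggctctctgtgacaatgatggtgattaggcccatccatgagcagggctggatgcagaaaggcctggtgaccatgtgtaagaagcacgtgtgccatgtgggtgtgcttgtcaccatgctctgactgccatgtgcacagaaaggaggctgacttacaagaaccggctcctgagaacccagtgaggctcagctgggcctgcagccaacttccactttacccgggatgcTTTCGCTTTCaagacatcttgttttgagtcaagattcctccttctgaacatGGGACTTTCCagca
Slamf9: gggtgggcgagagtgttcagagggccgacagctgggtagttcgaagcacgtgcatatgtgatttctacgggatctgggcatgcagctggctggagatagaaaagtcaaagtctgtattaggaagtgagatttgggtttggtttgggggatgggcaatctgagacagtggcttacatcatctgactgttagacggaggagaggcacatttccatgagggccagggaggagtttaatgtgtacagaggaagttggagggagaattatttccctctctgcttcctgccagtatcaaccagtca
Cd84: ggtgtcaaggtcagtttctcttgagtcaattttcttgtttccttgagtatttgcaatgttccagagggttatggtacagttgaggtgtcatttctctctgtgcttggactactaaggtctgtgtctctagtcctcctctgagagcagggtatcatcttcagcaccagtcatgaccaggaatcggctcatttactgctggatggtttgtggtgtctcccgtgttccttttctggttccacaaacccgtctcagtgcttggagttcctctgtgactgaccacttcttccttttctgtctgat
The Slamf8 window holds an interferon element from base -15 to base -6 relative to the gene start, read as GAAAGCGAAA on the strand opposite the gene. It also holds an NF-kB match, GGGACTTTCC, on the gene's own strand from base 37 to base 46 after the start, and the matches do not overlap. The other 5 windows (Cd48, Cd84, Slamf1, Slamf7 and Slamf9) had no match to any of the 3 motifs. The Slamf7 window (chr1:171648950-171649249, minus strand) lies inside the gene as annotated above, so it does not cover the start given there. Over all 32851 windows 3.44% held the interferon core, 8.3% the gamma-activated site, 4.51% the NF-kB consensus, and 60 (0.183%) both the interferon core and the NF-kB consensus. A match describes letters in the window and does not show that a factor binds there.

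How far the separation rested on single libraries was examined by leaving each one out. Without control replicate 1 the log2 fold changes of Slamf8, Ly9 and Slamf9 were 2.19, 1.99 and 1.45, and without control replicate 2 they were 2.19, 1.30 and 1.65. In those fits none of the 7 was among the called genes, of which there were 18 without control replicate 1 and 0 without control replicate 2. Without deletion replicate 2 Slamf9 left them (log2 1.53), and without deletion replicate 3 both Ly9 (1.72) and Slamf9 (1.49) left them. With the length trend removed Ly9 left them (1.43). Slamf8 ranged from 1.99 to 2.39 on the log2 scale over all alternatives, the narrowest range of the 3 called members. In the 2 libraries with Xist the deletion-to-control ratio of CPM was 5.22 for Slamf8, 3.14 for Ly9, 2.39 for Slamf9 and 1.88 for Cd48. In the 3 without it the ratios were 4.45, 3.63, 3.20 and 1.74 for the same genes.

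**Figure D2:**
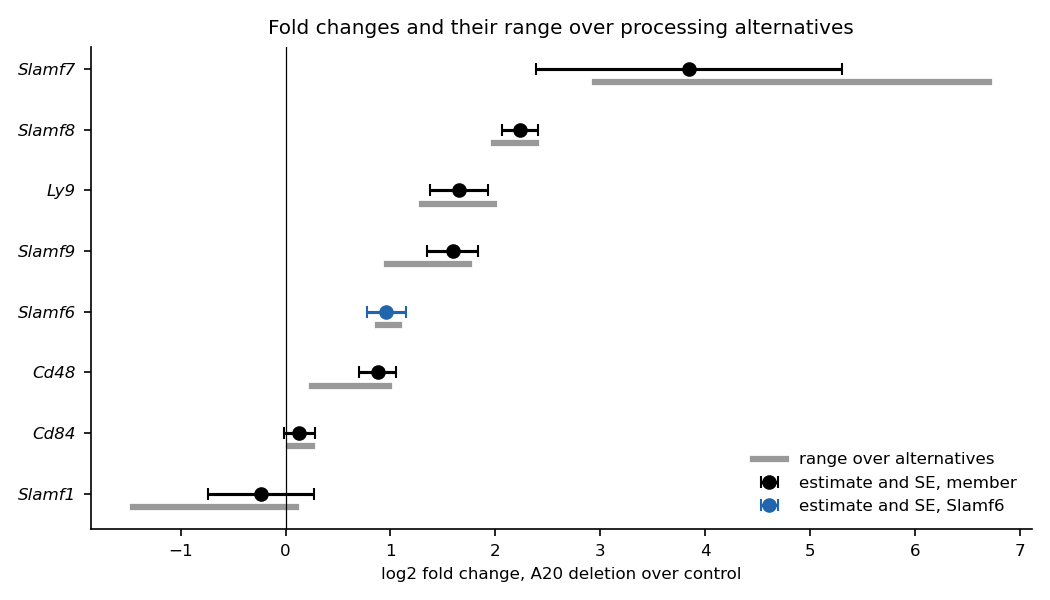
Log2 fold change, A20 deletion over control, for the 7 members (black) and Slamf6 (blue), with SE as whiskers and the lowest to highest value over the processing alternatives as grey bars. Slamf8 keeps a short bar at 1.99 to 2.39, Cd48 reaches down to 0.25, and Slamf1 crosses 0.

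Levels of different genes were compared per kilobase of exonic length (RPKM). Slamf9 and Cd48 were the most abundant in the deletion libraries, at 114.5 ± 26.65 and 85.55 ± 6.855 RPKM (SD, n = 3), with overlapping ranges. Below them came Cd84 at 57.19 ± 4.246, Slamf8 at 34.72 ± 3.125 and Ly9 at 25.24 ± 5.168 RPKM, each with a range clear of the next. Slamf1 (0.727 ± 0.377 RPKM) and Slamf7 (0.236 ± 0.231 RPKM) overlapped at the bottom. In the controls the order was different: Cd84 (52.18 ± 1.459 RPKM, SD, n = 2) and Cd48 (46.49 ± 7.035) overlapped at the top, and Slamf9 followed at 37.86 ± 3.811. Ly9 and Slamf8 overlapped at 8.033 ± 2.664 and 7.371 ± 0.0348 RPKM, above Slamf1 at 0.854 ± 0.0306 RPKM and Slamf7 at 0.0140 ± 0.0198 RPKM.

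The family's composition therefore differed between the groups, as a description of the values above. Summed over the 7 genes the level was 293.9, 326.7 and 333.8 RPKM in the deletion libraries and 145.9 and 159.7 RPKM in the controls. Cd84 made up 21.0%, 16.4% and 16.9% of that sum in the deletion libraries and 35.1% and 33.3% in the controls. Slamf8 made up 13%, 10.0% and 9.91% in the deletion libraries and 5.03% and 4.63% in the controls. The share of Cd48 was between 26.2% and 28.0% in the deletion libraries and 28.5% and 32.2% in the controls. Slamf9 made up 28.5%, 38.8% and 39.8% in deletion replicates 1, 2 and 3 and 24.1% and 25.4% in the controls. Cd48 and Slamf9 are the shortest of the 7, with 1189 and 1313 exonic bases. Deletion replicates 2 and 3 held the least signal from long genes. The part of gene length in the order and the shares was not tested. In bulk RNA, a change in the number of cells of a type and a change in RNA per cell cannot be told apart.

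**Figure D3:**
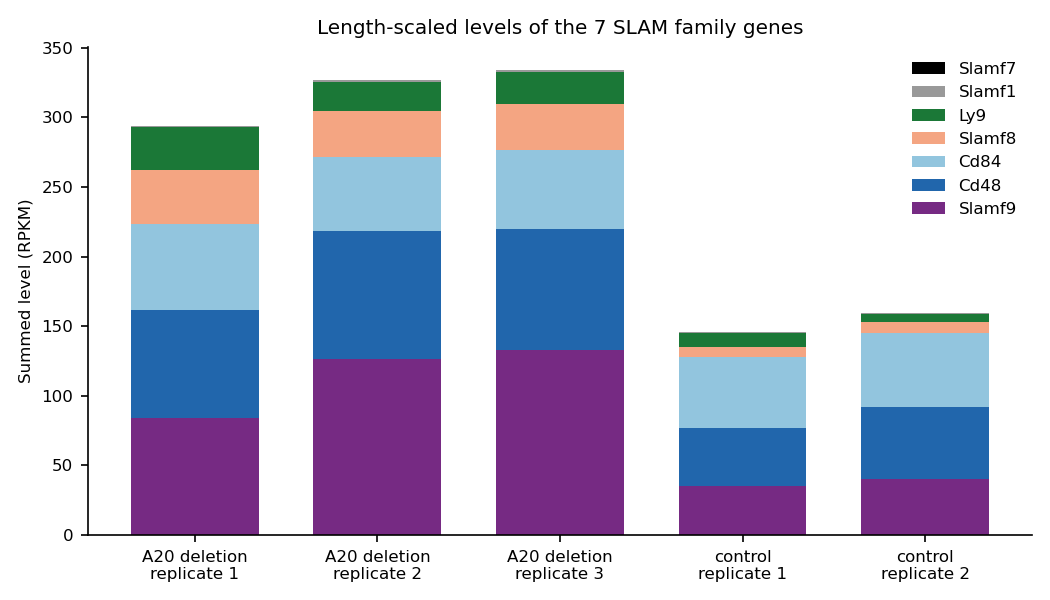
Stacked length-scaled levels (RPKM) of the 7 members in each library, with A20 deletion libraries on the left and controls on the right. The stacks reach 293.9 to 333.8 RPKM in A20 deletion and 145.9 and 159.7 RPKM in control, with a Cd84 band of similar height in all 5 and taller Slamf9, Cd48, Slamf8 and Ly9 bands in A20 deletion.

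Genes that work with the receptors were taken from lists chosen for their biochemistry. Of 44 tested genes 3 rose (Slamf6, Fgr and Cybb) and 0 fell, with a median log2 fold change of 0.00, and 17 had an unadjusted p under 0.05, as did 2575 (21%) of all 12240 tested genes. The edgeR fit called 2.08% of all tested genes higher and 0.507% lower. DESeq2 called 7 of the 44 and limma-voom 1, against 1110 and 211 of all 12240 tested genes. In 15 of the 44 every deletion library was above both controls and in 11 below, against 21.8% and 18.5% of all tested genes. Slamf6, or Ly108, a self-ligand of T and NK cells, stood at 26.68, 25.47 and 22.92 CPM in the deletion libraries and at 12.59 and 13.15 CPM in the controls. The groups did not overlap, and the fold change was 1.94 (log2 0.96, SE 0.19, n = 3 and 2, edgeR adjusted p = 0.0492). Slamf6 lost its call without control replicate 1 (log2 0.88, edgeR adjusted p = 0.361), control replicate 2 (0.94, 0.384), deletion replicate 2 (0.96, 0.138) or deletion replicate 3 (1.03, 0.125). It also lost its call with DESeq2 size factors in edgeR (adjusted p = 0.0559), library size alone (0.0537), limma-voom (0.0568), and deletion replicates 2 and 3 omitted (0.0524). Over all alternatives its adjusted p lay between 0.00151, with DESeq2, and 0.384.

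Cd244a, the receptor for CD48, did not pass, with 25, 10 and 8 counts in the deletion libraries and 7 and 6 in the controls (edgeR adjusted p = 0.319). Cd2, the other receptor for CD48 in mice, had 7, 2 and 0 counts in the deletion libraries and 0 and 0 in the controls, and was not tested. Sh2d1a, which encodes the adaptor SAP of T and NK cells, had 0 counts in all 5 libraries, which allows a level of up to 0.192 to 0.306 CPM. Sh2d1b2, a mouse relative of the adaptor EAT-2, stood at 2.339, 2.437 and 1.732 CPM in the deletion libraries and at 0.427 and 0.706 CPM in the controls. The groups did not overlap, but Sh2d1b2 did not pass (log2 1.92, SE 0.62, edgeR adjusted p = 0.162). Sh2d1b1 was not analysed here.

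Of 21 tested kinases, phosphatases and adaptors that SLAM tails recruit, 1 rose and 0 fell (2.08% and 0.507% of all tested genes). Their median log2 fold change was -0.14. An unadjusted edgeR p under 0.05 was found for 9 (21% of all tested genes). DESeq2 called 4 of the 21 and limma-voom 1, against 1110 and 211 of all 12240 tested genes. In 5 of the 21 every deletion library was above both controls and in 8 below. Over all tested genes these shares were 21.8% and 18.5%. The gene that rose was Fgr, a Src-family kinase of myeloid cells. Fgr stood at 21.05, 18.63 and 17.21 CPM in the deletion libraries and at 8.252 and 7.12 CPM in the controls. Every deletion library was above both controls (2.47-fold, log2 1.30, SE 0.21, n = 3 and 2, edgeR adjusted p = 0.0291). Fgr did not pass without control replicate 1 (log2 1.37, edgeR adjusted p = 0.202), control replicate 2 (1.15, 0.349), deletion replicate 2 (1.33, 0.0794) or deletion replicate 3 (1.38, 0.0853), nor with the length trend removed (1.13, 0.0567). Chosen after their values were seen, Fyn, the kinase that SAP binds, and Inpp5d, the inositol phosphatase SHIP1, did not pass, at log2 fold changes of -0.60 for Fyn and -0.57 for Inpp5d (edgeR adjusted p = 0.131 and 0.21). Fyn stood at 28.42, 28.61 and 23.73 CPM in the deletion libraries and at 43.25 and 38.68 CPM in the controls, without overlap. Prkcq had the lowest log2 fold change of the list, -1.22 (SE 0.29), and did not pass (edgeR adjusted p = 0.0831). It stood at 3.725, 5.817 and 6.01 CPM in the deletion libraries and at 13.09 and 11.1 CPM in the controls. Over all alternatives its log2 fold change lay between -1.69 and -1.06.

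SLAMF7 promotes phagocytosis together with the integrin Mac-1 and the signalling chains FcR gamma and DAP12. Of the 8 tested genes of that group 0 passed and 2 had an unadjusted p under 0.05 (21% of all tested genes). DESeq2 called 1 of the 8 and limma-voom 0. The 2 with the smallest p were Fcer1g, encoding FcR gamma, and Tyrobp, encoding DAP12, at log2 fold changes of 0.74 and 0.54 (edgeR adjusted p = 0.12 and 0.167). With the length trend removed their log2 fold changes were -0.03 and -0.30. With deletion replicates 2 and 3 omitted they were 0.41 and 0.29. The part of gene length in these values was not tested.

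Among 12 tested genes of the phagosome lipid kinase complex and the NADPH oxidase, on which SLAMF1 and SLAMF8 act in mouse macrophages, 1 rose and 0 fell, with a median log2 fold change of 0.08. It was Cybb, the catalytic subunit of the phagocyte oxidase, at 389.7, 110.5 and 139.0 CPM in the deletion libraries and 20.2 and 27.58 CPM in the controls. Deletion replicate 1 was far above the other two, and all 3 were above the controls (8.91-fold, log2 3.16, SE 0.59, n = 3 and 2, edgeR adjusted p = 0.0453). Cybb did not pass without control replicate 1 (log2 2.91, edgeR adjusted p = 0.323), control replicate 2 (3.35, 0.348) or deletion replicate 3 (3.39, 0.0769), nor with limma-voom or the robust fit. Without deletion replicate 1 the log2 fold change was 2.36. Ncf1, which encodes a cytosolic oxidase subunit and was picked with its values known, had 487.7, 447.2 and 450.8 CPM in the deletion libraries and 489.6 and 456.2 CPM in the controls (log2 -0.03, edgeR adjusted p = 0.907). Cyba, Ncf4 and Rac2, also picked so, were above both controls in every deletion library but did not pass. Their log2 fold changes were 0.735, 0.642 and 0.378 (edgeR adjusted p = 0.156, 0.153 and 0.251). With the length trend removed they were 0.03, 0.22 and 0.12. In 4 of the 12 every deletion library was above both controls and in 1 below, against 21.8% and 18.5% of all tested genes.

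**Figure D4:**
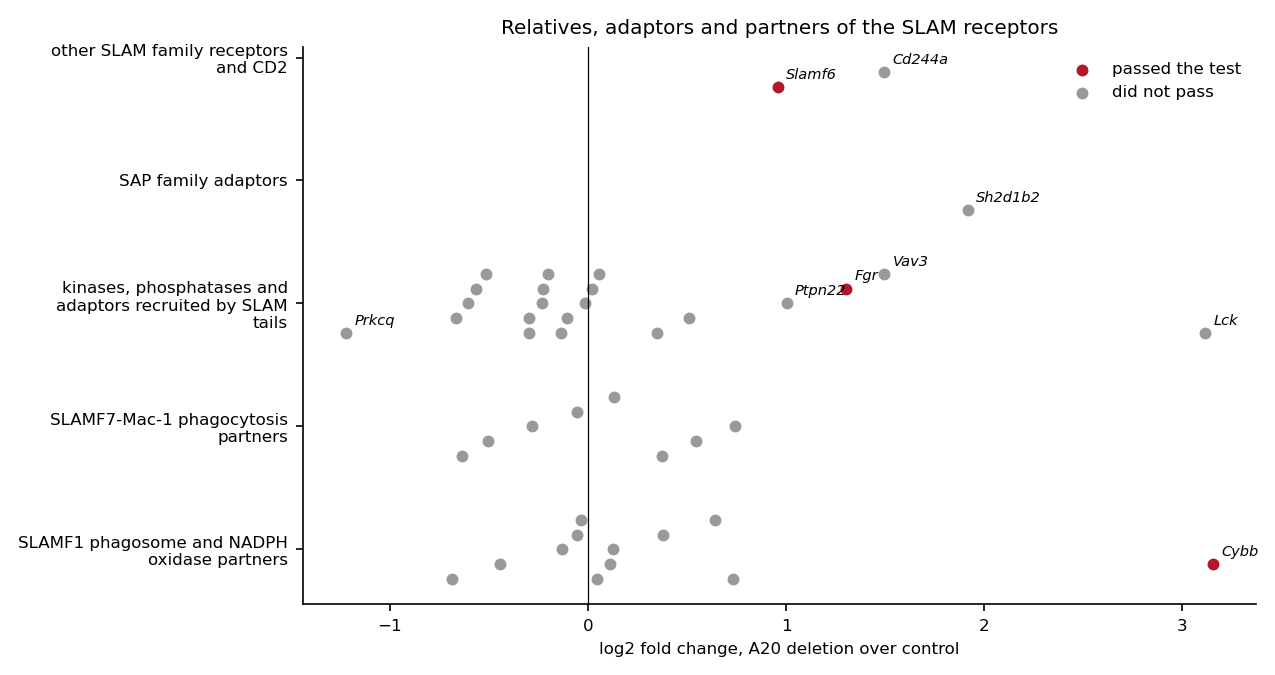
Log2 fold change, A20 deletion over control, of the tested relatives, adaptors and partners of the SLAM receptors, grouped by list, with genes that passed the test in red and the others in grey. Slamf6, Fgr and Cybb passed, and most of the 44 genes lie within 1 of 0; vertical scatter within a list only separates the points.

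All 7 members and their relatives Slamf6 and Cd244a lie in a single stretch of chromosome 1, GRCm38 171559193 to 172590568, which spans 1031 kb and holds 35 genes of the table. Apart from the family, 16 genes there were tested. Of these 0 passed with edgeR and 2 had an unadjusted p under 0.05 (21% of all tested genes). DESeq2 called 1 of the 16 and limma-voom 0. Their median log2 fold change was 0.22, against 0.05 over all tested genes. In 3 of the 16 every deletion library was above both controls and in 2 below, which held for 21.8% and 18.5% of all tested genes. Slamf9 and Slamf8 sit at the far end of the stretch, 916.2 and 1023 kb from the start of Cd244a, separated from Slamf6 by non-family genes.

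**Figure D5:**
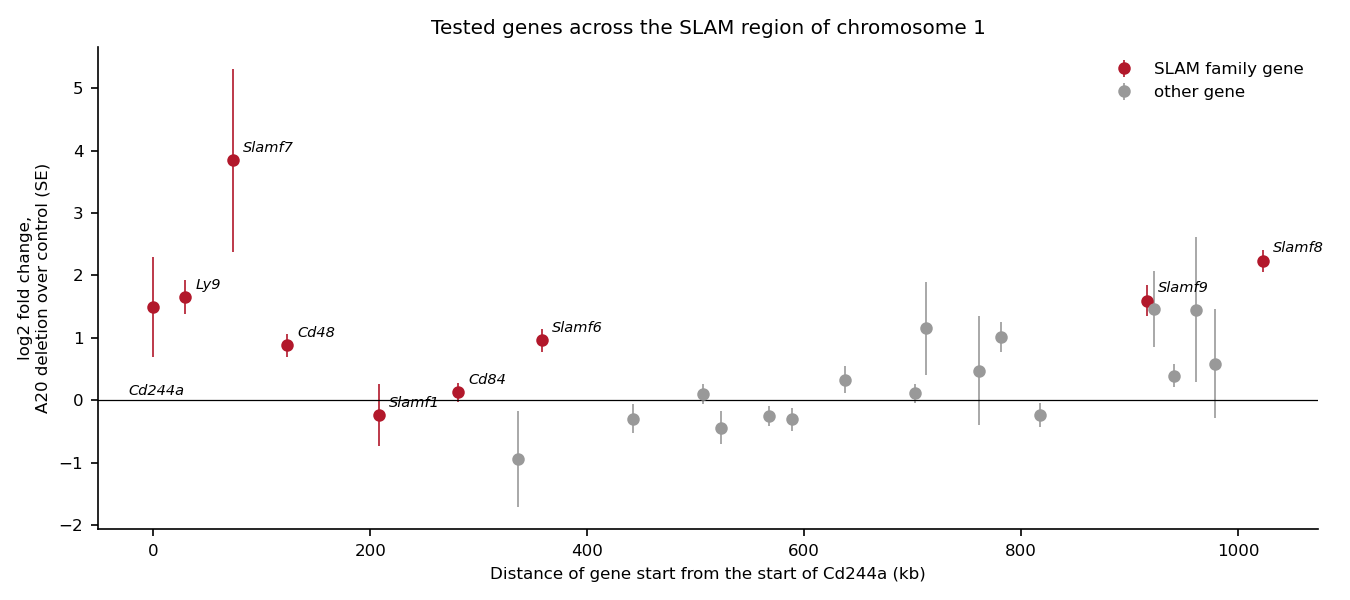
Log2 fold change with SE, A20 deletion over control, of every tested gene of the SLAM stretch of chromosome 1 against the distance of its start from that of Cd244a in kb, family genes in red and others in grey. Ly9, Slamf7, Slamf9 and Slamf8 lie above 1.5 (Slamf7 from few counts, with a wide SE), Slamf1 and Cd84 lie near 0, and the other genes scatter on both sides of 0 with 0 of 16 passing the test.

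The tested genes whose profile over the 5 libraries was most like that of a member were found by the root mean square distance between centred log2 CPM values. For Slamf8 they were H2-K1, an MHC class I heavy chain (distance 0.0691), and Bst2, the antiviral protein tetherin (0.143). H2-K1 stood at 3826, 2872 and 3287 CPM in the deletion libraries and at 686.2 and 698.5 CPM in the controls, and its reads may be shared with near-identical class I genes. For Ly9 they were Treml2 (0.0948) and Cd274, encoding the checkpoint ligand PD-L1 (0.129). For Cd48 they were the tetraspanin gene Cd63 (0.0507) and the cystatin gene Cstb (0.0619), and for Slamf9 Pgghg (0.0873) and Aph1c (0.102). Cd84 was closest to Tpm4 (0.0137) and Acp2 (0.0213), and Slamf1 to Gimap5 (0.108) and Mageh1 (0.114). Slamf7, with its few counts, had no close neighbour: Pgm5 lay at 0.26 and Naip1 at 0.45. Among the members themselves the closest pairs were Ly9 with Slamf8 (0.364) and Cd48 with Slamf9 (0.374), and the most distant was Slamf1 with Slamf7 (1.89). The distance takes in the size of the group difference, so genes with a like fold change lie close. The log2 fold changes of H2-K1 and Bst2 were 2.27 and 2.21, and that of Slamf8 was 2.24. Shared regulation was not tested.

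Because lymphocytes carry most SLAM receptors, markers of other cells were read in the same libraries. The 15 T cell markers summed to 11.3, 8.8 and 7.33 CPM in the deletion libraries and to 2.35 and 3.01 CPM in the controls. The marker with the highest CPM was Cd4, and 9 of the 15 were at 0 in both controls. Of the 2 T cell markers that could be tested 0 passed with edgeR and 1 had an unadjusted p under 0.05 (21% of all tested genes). DESeq2 called 1 of the 2 and limma-voom 0. The CD3 chain genes Cd3d, Cd3e and Cd3g were picked with their values known. Together they had 16, 13 and 11 counts in the deletion libraries and 0 and 0 in the controls. The 10 NK markers summed to 4.59, 4.09 and 1.43 CPM in the deletion libraries and to 2.63 and 5.84 CPM in the controls. The highest, Klrd1, stood at 1.04, 2.044 and 0.611 CPM in the deletion libraries and at 2.276 and 5.453 CPM in the controls. Klrd1 thus made up most of the control sums, which say little of the other markers. Of the 10 markers 7 were at 0 in both controls, and 1 of these, Eomes, was at 0 in every library. Klrd1 was the 1 NK marker that could be tested, and did not pass (log2 -1.63, edgeR adjusted p = 0.22). Nkg7 went the other way, with 10, 8 and 2 counts in the deletion libraries and 1 and 0 in the controls. So did Klrk1, with 8, 5 and 6 counts against 0 and 0. Klrb1c had 5, 1 and 0 counts in the deletion libraries and 4 and 6 in the controls. The part of T and NK cells in the levels of Ly9, Cd48, Slamf6 and Slamf7 was not tested.

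The B and plasma cell markers summed to between 386 and 424 CPM in the deletion libraries and to 341 and 275 CPM in the controls, nearly all of it Ighm and Cd79b, while Mzb1 and Fcmr were at 0 in every library. The 10 monocyte markers summed to 390, 395 and 445 CPM in the deletion libraries and to 310 and 46.1 CPM in the controls. Most of that sum was Nr4a1, which is also an immediate-early gene, and the other 9 summed to 48.2, 27.4 and 63.3 CPM in the deletion libraries and to 16.8 and 15 CPM in the controls. Of 7 tested monocyte markers 1 rose, Plac8 (log2 3.14, edgeR adjusted p = 0.00792). In 4 of the 7 every deletion library was above both controls (21.8% of all tested genes). In 1, Ccr2, every deletion library was below both (18.5%). An unadjusted edgeR p under 0.05 was found for 2 (21% of all tested genes). DESeq2 called 1 of the 7. Ly6c2 had 12, 7 and 12 counts in the deletion libraries and 1 and 0 in the controls. It did not pass (log2 4.42, edgeR adjusted p = 0.122). Ccr2, the chemokine receptor of circulating monocytes, had 94, 66 and 54 counts in the deletion libraries and 162 and 128 in the controls, and did not pass (log2 -0.65, edgeR adjusted p = 0.271). Border macrophage markers, led by Mrc1, summed to between 93.6 and 117 CPM in the deletion libraries and to 64.4 and 140 CPM in the controls. Dendritic cell markers, nearly all of it Fscn1, summed to between 817 and 894 CPM in the deletion libraries and to 1250 and 1280 CPM in the controls. The other 8 summed to 12.1, 14.9 and 14.9 CPM in the deletion libraries and to 6.62 and 7.25 CPM in the controls. Of the 5 tested dendritic markers 4 lay without overlap above the controls and 1, Fscn1, below, against 21.8% and 18.5% of all tested genes. With edgeR 0 of the 5 passed and 3 had an unadjusted p under 0.05 (21% of all tested genes). DESeq2 called 2 of the 5 and 1110 of all 12240 tested genes. The part of these myeloid cells in the levels of Slamf8, Slamf9 and Cd48 was not tested. Markers of neutrophils (S100a9), mast cells (Cpa3) and neurons (Snap25) summed to less than 18 CPM in every library. Those of astrocytes (Slc1a3) summed to 158, 287 and 282 CPM in the deletion libraries and to 133 and 179 CPM in the controls. For oligodendrocytes (Mbp) the sums were 123, 216 and 211 CPM against 93.8 and 112 CPM. For endothelial cells and pericytes (Pecam1) they were 114, 65.9 and 67.2 CPM against 71.3 and 71.5 CPM. With edgeR 0 of their tested markers passed. Every deletion library was above both controls in 1 of 5 astrocyte, 3 of 4 oligodendrocyte and 3 of 6 endothelial markers (21.8% of all tested genes). DESeq2 called 1, 2 and 2 of them.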

How the data were processed

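RNA of sorted eYFP-positive microglia (10 ng, integrity number 7 or above) was sequenced in 5 libraries, 3 A20 deletion and 2 control. The deposited values are raw counts of reads per Ensembl gene. Per the submitters' processing notes, the authors used STAR 2.4.0j, featureCounts, DESeq2 1.22.1 and GRCm38. Not given in the sources used here: annotation, strand setting, treatment of multi-mapping reads. Symbols, coordinates and exonic lengths came from GENCODE M21 by Ensembl identifier (40254 of 41388 genes matched) and promoters from RefSeq.

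In R 4.3.3, the filterByExpr function (count of at least 10, total of at least 15) kept 12240 genes, and TMM scaled the libraries. Groups were compared with edgeR 4.0.16's quasi-likelihood test, two-sided, no covariate, with Benjamini-Hochberg adjustment over all tested genes and a threshold of 0.05. CPM and RPKM use the scaled library total. An approximate SE was taken as the absolute log2 fold change over the root of its F statistic. Alternatives used DESeq2 1.42.0, limma 3.58.1, other scalings and filters, a length trend, a replicate block and omitted libraries. Terms for sex (more than 100 Xist counts) and for the mitochondrial share were added after the data were seen. The fit was tested on simulated data.

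The members and lists were chosen with earlier results of these data known. The genes named are the 7 members, Tnfaip3, the other SLAM receptors and SAP adaptors, the called genes of each partner list or else the 2 with the smallest p, called locus neighbours, the highest marker per cell type, and the 2 nearest profiles per member. Other genes named with values were picked with their values known. They are Fyn, Inpp5d, Prkcq, Ncf1, Cyba, Ncf4, Rac2, Cd79b, Plac8, Ccr2, Ly6c2, Nkg7, Klrk1, Klrb1c and the CD3 chains. Protein sequences were not analysed here.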

Additional observations from a re-analysis of the deposited data

How the results depend on the processing

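In every alternative where a member could be fitted it kept its direction, except Slamf1 without deletion replicate 1 (log2 0.10). Slamf7 could be fitted in 15 of 18 alternatives. It did not pass the filter of at least 5 CPM in 2 libraries, nor the low-count filter without deletion replicate 1 or without deletion replicate 2. The fit over all 5 libraries called 3 members higher and 0 lower, an adjusted p under 0.01 gave 1 higher, and single omissions gave 0 to 4. Over all genes 255 were called higher and 62 lower. These became 1048 and 653 with no filter, 744 and 366 with DESeq2, 563 and 261 with the sex term, and 56 and 2 at an adjusted p under 0.01. Leaving out a library gave 1902 higher and 2021 lower (deletion replicate 1), 158 and 20 (deletion replicate 2), 85 and 5 (deletion replicate 3), 16 and 2 (control replicate 1), or 0 and 0 (control replicate 2, where 1323 genes had an unadjusted edgeR p under 0.05). Higher calls numbered 166 with limma-voom and 163 with the length trend removed. Of all calls 80.4% were higher, against 65.5% with the length trend removed, 67% with DESeq2, 68.3% with the sex term, 61.6% with no filter, 48.5% without deletion replicate 1 and 94.4% without deletion replicate 3. Removing the length trend put the median of all genes at -0.12 on the log2 scale, against 0.05.

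Of the partner genes 3 were called higher and 0 lower. The counts were 5 and 4 with no filter, 5 and 2 with DESeq2, and 11 and 11 without deletion replicate 1, with 0 higher and 0 lower at the low end of the single omissions. Higher calls fell to 1 with limma-voom and to 0 at an adjusted p under 0.01, and lower calls were 1 each with the sex term, the mitochondrial term, and deletion replicates 2 and 3 omitted. Of the locus neighbours 0 were called. There were 2 higher with no filter, 1 each with DESeq2, the sex term, the mitochondrial term, and deletion replicates 2 and 3 omitted, and 0 to 3 higher and 0 to 2 lower with single libraries left out. Fcer1g (-0.03) and Tyrobp (-0.30) turned negative with the length trend removed. The cause of these shifts was not tested. An arm left with 1 library was assumed to vary like the other group.

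The labels give the replicate numbers no meaning. Both number 1 libraries hold Xist and both number 2 libraries lack it. The correlations of their deviations from the group means were 0.26 for number 1 and 0.167 for number 2. Deletion replicate 3, with no control of its number, had 0.217 with control replicate 2 and -0.217 with control replicate 1. With 2 controls their deviations mirror each other, so these values do not show a pairing. With the replicate block 228 genes were called higher and 32 lower, Ly9, Slamf8 and Slamf9 stayed called, and Slamf6 was not called (edgeR adjusted p = 0.0745). Counts of Slamf7 lie near the floor, and the depth does not settle the size of its ratio.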
